A study of Caenorhabditis elegans with 12 samples.

Results

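The 4 genes described here, *daf-36*, *hsd-1*, *daf-9* and *daf-12*, encode 3 enzymes of dafachronic acid synthesis and the receptor of this hormone. They were found by symbol among 45327 genes in a table of normalized counts. RNA was sequenced from whole *C. elegans* worms at the L4 larval stage, in 4 groups of 3 libraries (12 libraries in all), which the study calls biological replicates. The groups were the wild type strain N2 without vitamin C, N2 grown with 10 mM sodium ascorbate (N2 vitC), the *wrn-1(gk99)* mutant without vitamin C, and the mutant with 10 mM sodium ascorbate (*wrn-1(gk99)* vitC). All worms hatched from bleached eggs, were plated as L1 larvae and grew at 25°C. The *gk99* allele is a deletion in *wrn-1*, the ortholog of the Werner syndrome helicase gene, in a line out-crossed to N2. The mutant reached L4 later than N2, and animals were harvested by stage and not by age. The labels do not say whether libraries of a group came from separate cultures, so the p-values measure only the spread between these libraries, which may be technical.

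Dafachronic acids are bile acid-like steroid hormones that worms make from dietary cholesterol. The Rieske oxygenase DAF-36 introduces a double bond into the sterol ring early in the pathway, the hydroxysteroid dehydrogenase HSD-1 is thought to act on the ring in one branch, and the cytochrome P450 DAF-9 oxidises the side chain in the last step. The product binds the nuclear receptor DAF-12. Bound DAF-12 promotes reproductive growth and the timing of larval stages, while DAF-12 without its ligand, together with the corepressor DIN-1, promotes dauer arrest. In worms, DAF-36 is known from the intestine, HSD-1 from the pair of neuroendocrine XXX cells of the head, DAF-9 from the XXX cells, the hypodermis and the spermatheca, and DAF-12 from most tissues.

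The results turn on *daf-9*, which the study also measured by RT-PCR. Its 2 primers are shown because they are the sequences with which this transcript was assayed a second time, written in lower case, 5′ to 3′. The RT-PCR values were not analysed here.
daf-9 forward primer: accgtgttctgtctagcgttct
daf-9 reverse primer: gccattcgaagtcagggacc

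In the WBcel235 annotation, *daf-9* (T13C5.1) and *daf-12* (F11A1.3) lie on chromosome X and *daf-36* (C12D8.5) lies on chromosome V. The exons of *daf-9* merge into 12 blocks over 3 transcripts, those of *daf-12* into 20 blocks over 10 transcripts, and *daf-36* has 6 exons. The values are counts per gene, so they do not separate the transcripts. An exon of *daf-36* shares 9 bp with the gene C12D8.20 on the opposite strand, and the strand setting of the counting is not given in the sources used here.

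The libraries held 13446257 to 34234211 reads on genes (median 20136361). Within N2, *wrn-1(gk99)* and *wrn-1(gk99)* vitC, and between the first and second N2 vitC libraries, replicates correlated at 0.992 or more (Pearson, log2 scale). The library labelled N2 vitC replicate 3 stood apart: it correlated at 0.960 and 0.961 with the other N2 vitC libraries and at 0.994 to 0.996 with the *wrn-1(gk99)* vitC libraries. Its *wrn-1* count was 614, against 407 and 380 in the other N2 vitC libraries and 648 to 835 in *wrn-1(gk99)* vitC. It is named here by its label, and whether that label is right was not tested. A wrong label would change what each N2 vitC and interaction value compares, so results on the hormone genes are given with it and without it. The *wrn-1* gene itself had 516, 499 and 502 normalized counts in N2 and 854, 789 and 700 in the mutant, 1.54-fold more (limma, adjusted p = 0.00621). A count over the whole gene does not show the deletion, so it cannot check the genotype. Genes of adults summed to 33.1 to 76.8 normalized counts in all 12 libraries over 7 genes, against 12477 to 18455 for the 6 hypodermis markers. The adult sums were not alike: the lowest N2 library had 63.7, and no library of the other groups exceeded 48.4. The 1 adult gene tested was lower than in N2 in each other group. Its log2 difference was -0.69 for *wrn-1(gk99)*, -1.06 for N2 vitC and -0.82 for *wrn-1(gk99)* vitC (limma, adjusted p = 0.00943, 0.00226 and 0.00679). Whether the groups differed in stage was not tested. In whole worms, fewer cells of a type and less RNA per cell cannot be told apart.

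A normalized count is the number of reads on a gene divided by the size factor of its library. Differences were tested with limma after adding 1 and taking log2, in 14352 genes with a mean of at least 10. A gene passed at a Benjamini-Hochberg adjusted p under 0.01, and was called when, in addition, the group means differed at least 2-fold and 1 of them was above the minimum set in the study's methods. Of the 4 genes, *daf-36*, *daf-9* and *daf-12* were tested, and *hsd-1* had a mean under the minimum.

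The first enzyme gene, *daf-36*, was at its lowest in N2, with 226, 235 and 211 normalized counts. In N2 vitC it had 582, 525 and, in the library that stood apart, 293. In *wrn-1(gk99)* it had 380, 394 and 391, and in *wrn-1(gk99)* vitC 296, 332 and 308. All 9 libraries of the other groups were above all 3 of N2, and the first and second N2 vitC libraries were the highest of the 12.

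The *hsd-1* gene (Y6B3B.11, 7 exons on chromosome I in WBcel235) was close to undetected. It had 2, 0 and 0 reads in N2, 1, 0 and 0 in N2 vitC, 3, 1 and 2 in *wrn-1(gk99)* and 2, 1 and 0 in *wrn-1(gk99)* vitC. These are 12 reads in all, found in 7 of 12 libraries. No library exceeded 3 reads, the limit that a count of 0 allows, so no fold is given and a difference between groups was not detectable at this depth. Another 5 genes from a list for the XXX cells, whose expression need not be limited to those cells, were looked up beside it. Of these, *eak-3*, *eak-4* and *sdf-9* were also under the minimum mean, and *eak-6* and *eak-7* were tested and did not pass between *wrn-1(gk99)* and N2 (adjusted p = 0.404 and 0.039). The 5 genes summed to 660 to 737 normalized counts in N2 and to 587 to 630 in *wrn-1(gk99)*. These sums came mostly from *eak-6* and *eak-7*, so they are not a measure of the XXX cells.

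The last enzyme gene, *daf-9*, had 165, 166 and 173 normalized counts in N2. In N2 vitC it had 105, 86.7 and, in the library that stood apart, 328. In *wrn-1(gk99)* it had 620, 569 and 625, and in *wrn-1(gk99)* vitC 360, 321 and 348. The groups formed steps that did not overlap, except for N2 vitC, whose first and second libraries were the lowest of the 12, while replicate 3 lay among the *wrn-1(gk99)* vitC libraries. The lowest of these values, in N2 vitC replicate 2, rested on 70 reads and the *wrn-1(gk99)* values on 629 to 1098.

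The receptor gene *daf-12* was the most abundant of the 4. It had 3326, 3152 and 2844 normalized counts in N2, 2904, 2995 and 2580 in *wrn-1(gk99)*, and 3547, 2438 and 2907 in *wrn-1(gk99)* vitC. These 3 groups overlapped. In N2 vitC it had 5862 and 5858 in the first and second libraries and 3059 in replicate 3, which lay within the range of the other groups.

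**Figure D1:**
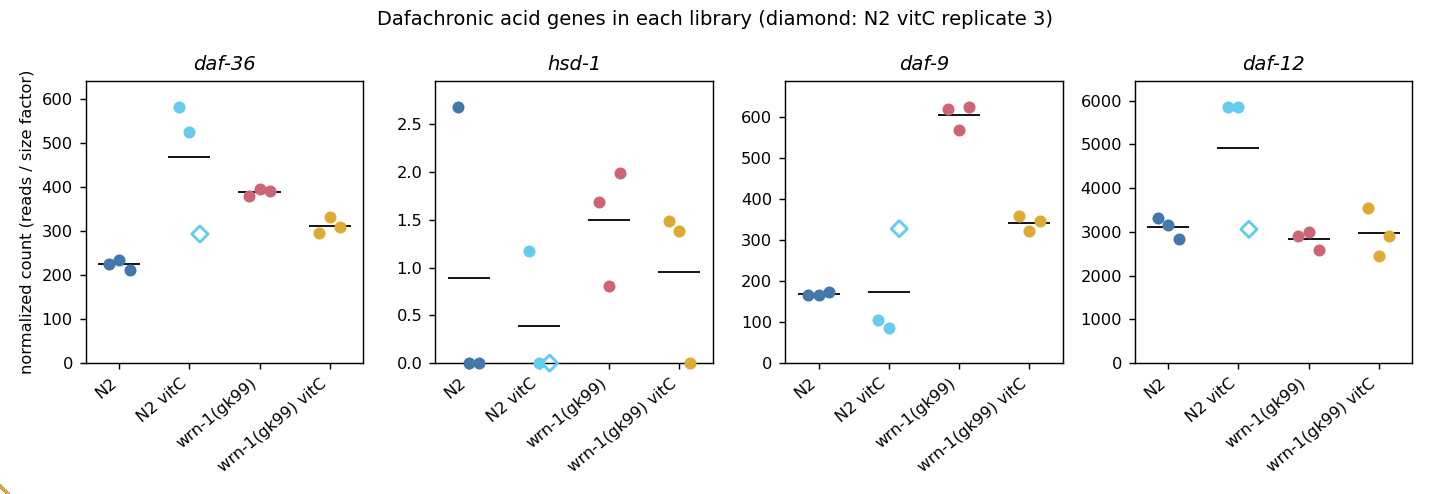
Normalized counts (vertical axis, linear, one scale per gene) of *daf-36*, *hsd-1*, *daf-9* and *daf-12* in each of the 12 libraries by group. Points are libraries, bars are group means, and the open diamond is N2 vitC replicate 3, which lies apart from its group for *daf-36* (293), *daf-9* (328) and *daf-12* (3059).

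Per kilobase of exon, the order of the levels in N2 was *daf-12* (700 ± 54.9 normalized counts per kb, SD, n = 3), *daf-36* (162 ± 8.63), *daf-9* (81.4 ± 2.02) and *hsd-1* (0.645 ± 1.12). None of these neighbours overlapped in N2. In *wrn-1(gk99)*, *daf-12* stayed the highest at 636 ± 49.2 per kb, while *daf-9* at 293 ± 14.97 and *daf-36* at 281 ± 5.47 overlapped in range, 276 to 303 and 275 to 286. With vitamin C in the mutant, *daf-36* was again above *daf-9*, at 226 ± 13.6 against 166 ± 9.51 per kb.

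The balance of the 2 enzyme genes within a library differed between groups. The ratio of *daf-9* to *daf-36* normalized counts was 0.706 to 0.818 in N2 and 1.44 to 1.63 in *wrn-1(gk99)*. With vitamin C it was 0.967 to 1.22 in the mutant, and 0.180 and 0.165 in the first and second N2 libraries but 1.12 in N2 vitC replicate 3. Across the 12 libraries the correlation on the log2 scale was -0.080 between *daf-9* and *daf-36*, -0.74 between *daf-9* and *daf-12* and 0.61 between *daf-36* and *daf-12* (Pearson). These are descriptions of 12 points that fall into 4 groups.

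**Figure D2:**
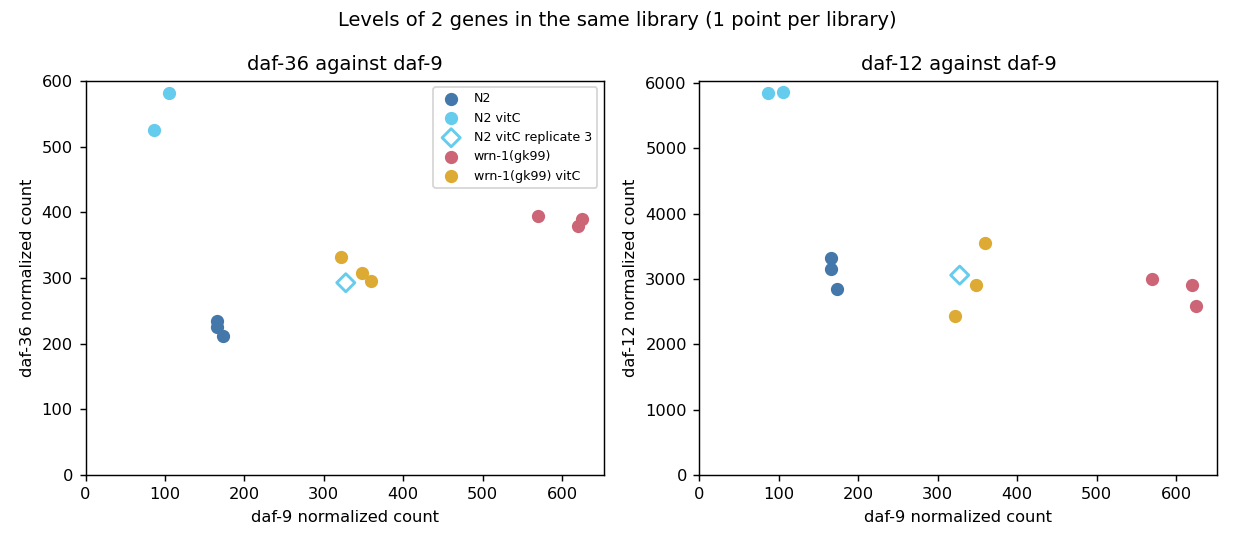
Normalized counts of *daf-36* (left) and *daf-12* (right) against *daf-9* in the same library, on linear axes, 1 point per library coloured by group. The first and second N2 vitC libraries pair the lowest *daf-9* (105 and 86.7) with the highest *daf-36* and *daf-12*, and N2 vitC replicate 3 (open diamond) lies by the *wrn-1(gk99)* vitC libraries.

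The first comparison set the *wrn-1(gk99)* strain against N2, both without vitamin C. The last enzyme gene rose most: *daf-9* was 3.60-fold higher in *wrn-1(gk99)* (605 ± 30.9 normalized counts, SD, n = 3) than in N2 (168 ± 4.17). The first enzyme gene also rose, *daf-36* being 1.73-fold higher (388 ± 7.56 against 224 ± 11.9). The receptor gene *daf-12* did not pass, at 2826 ± 218 against 3108 ± 244.

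On the log2 scale the difference was 1.84 for *daf-9* (SE 0.36, limma adjusted p = 0.00101), which was called, and 0.79 for *daf-36* (SE 0.20, adjusted p = 0.00463), which passed but was under 2-fold. For *daf-12* it was -0.14 (95% confidence interval -0.61 to 0.34, adjusted p = 0.604). Thus 2 of the 3 genes tested passed upward, where 20.4% of all genes tested did, and 1 was called upward, where 4.24% were. The mutant libraries were all above those of N2 for *daf-9* and *daf-36*, as for 38.2% of all genes. An exact permutation test of 3 against 3 cannot go below a two-sided p of 0.1.

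The spread shared by the fit was smaller without N2 vitC replicate 3. The adjusted p was then 3.82e-11 for *daf-9* and 1.15e-07 for *daf-36*, and 0.244 for *daf-12*, while 62.9% of all genes passed. With that library kept, leaving out any 1 of the 6 N2 or *wrn-1(gk99)* libraries took the adjusted p of *daf-36* above 0.01 (0.0124 to 0.0191) and left *daf-9* under it (0.00394 to 0.00494).

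Markers of some other tissues differed in the same comparison, in which 20.4% of all genes rose and 23% fell. Of 8 intestine markers 5 rose and 1 fell, and their sum was 76584 to 79661 normalized counts in *wrn-1(gk99)* against 40270 to 41290 in N2. The 6 hypodermis markers summed to 17918 to 18455 against 12477 to 12909, with 2 rising and 1 falling (median log2 difference 0.073, from -0.96 to 1.81). The 6 germline markers summed to 15182 to 15571 against 10102 to 10406, with 3 rising. Of 6 neuron markers 3 fell. Of 4 body wall muscle markers 3 were tested and none passed (median log2 difference -0.16), and 1 was at 0 in every group. Of 5 genes of the moulting cycle 3 rose and 1 fell (30192 to 31346 against 22082 to 22920). No intestine, hypodermis, germline, neuron or moulting marker was at 0. The part of the marker lists in the differences of *daf-9* and *daf-36* was not tested.

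The second comparison asked what vitamin C changed in wild type worms. The first enzyme gene rose: *daf-36* had 467 ± 153 normalized counts in N2 vitC (SD, n = 3) against 224 ± 11.9 in N2, 2.08-fold more. The *daf-9* mean was 173 ± 134 against 168 ± 4.17, and *daf-12* was 4926 ± 1617 against 3108 ± 244. Neither passed. For *daf-9* the first and second libraries were below the N2 range and replicate 3 above it, and for *daf-12* the first and second were above that range and replicate 3 inside it.

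On the log2 scale the difference was 1.00 for *daf-36* (SE 0.20, adjusted p = 0.00349, called), 0.61 for *daf-12* (SE 0.22, adjusted p = 0.0659) and -0.22 for *daf-9* (SE 0.36, adjusted p = 0.708). The *daf-9* difference of means and that of log2 values differ in sign. The 1 gene of 3 that passed upward compares with 5.26% of all genes, and the 1 called upward with 1.16%. The N2 vitC libraries were all above those of N2 for *daf-36*, as for 14% of all genes.

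Without N2 vitC replicate 3 all 3 genes passed, against 36.4% of all genes, each in its own direction. Then *daf-36* was 2.47-fold higher (log2 1.30, SE 0.08, adjusted p = 4.89e-09) and *daf-12* was 1.89-fold higher (log2 0.92, SE 0.12, adjusted p = 1.08e-05). The *daf-9* gene was lower, at 0.570 of its N2 mean (log2 -0.81, SE 0.09, adjusted p = 4.64e-06). The *daf-36* call did not hold in every fit: its adjusted p was 0.0548 with only these 2 groups fitted, and 0.0123 to 0.0173 without any 1 of the other 5 N2 or N2 vitC libraries.

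In N2 vitC the hypodermis markers summed to 16697 and 16913 normalized counts in the first and second libraries and 14084 in replicate 3, against 12477 to 12909 in N2, and 3 of 6 rose. The intestine markers went the other way in the first and second libraries, with sums of 36324 and 37015 against 40270 to 41290 in N2, and were at 49777 in replicate 3; 1 of 8 passed and rose. The germline markers summed to 8470, 8718 and, in replicate 3, 13232, against 10102 to 10406 in N2, and none of the 6 passed. Nor did any of the 6 neuron or 3 tested body wall muscle markers. Over all 12 libraries 5.26% of all genes passed upward and 7.48% downward. Without replicate 3, 6 of 8 intestine markers fell and 1 rose, 4 of 6 germline markers fell, and 5 of 6 hypodermis markers rose and 1 fell. In that fit 1 of 3 body wall muscle markers rose, no neuron marker passed, and 36.4% of all genes passed. The moulting genes summed to 59303 and 58925 in the first and second libraries and to 22507 in replicate 3, against 22082 to 22920 in N2. Over all 12 libraries 1 of 5 passed, *nhr-23*, which rose. The log2 differences ran from -0.61 to 1.49 with a median of 0.059, so the higher sums do not describe every moulting gene. Without replicate 3, 2 of 5 rose and 1 fell. Replicate 3 differed from its group in these genes as well. Their part in the difference of *daf-36* was not tested.

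The third comparison asked what vitamin C changed in the mutant. Both enzyme genes had lower counts with vitamin C in every library: *daf-9* had 343 ± 19.6 against 605 ± 30.9 (0.567 of the untreated mean) and *daf-36* had 312 ± 18.7 against 388 ± 7.56 (0.803). In the fit over 12 libraries neither passed. The *daf-12* gene had 2964 ± 557 against 2826 ± 218.

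The log2 difference was -0.82 for *daf-9* (SE 0.36, adjusted p = 0.142), -0.32 for *daf-36* (SE 0.20, adjusted p = 0.306) and 0.055 for *daf-12* (SE 0.22, adjusted p = 0.904). So 0 of 3 passed in limma, where 10.3% of all genes did, and 0 passed in edgeR and in DESeq2, while 1 had an unadjusted p under 0.05. The libraries of *daf-9* and *daf-36* did not overlap, lower with vitamin C, as for 26.5% of all genes. Without N2 vitC replicate 3, which is in neither group but sets part of the shared spread, *daf-9* passed (adjusted p = 1.53e-06) and so did *daf-36* (0.00251), where 28.5% of all genes passed. With only these 2 groups fitted, both passed as well (1.06e-05 and 0.00387).

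The intestine markers summed to 50065 to 54823 normalized counts with vitamin C in the mutant, against 76584 to 79661 without, with 1 of 8 rising and 4 falling. The hypodermis markers summed to 13702 to 13881 against 17918 to 18455, and none of the 6 passed (median log2 difference 0.11). The moulting genes summed to 19433 to 27580 against 30192 to 31346, with 2 of 5 falling. The germline markers summed to 13089 to 14843 against 15182 to 15571, and none of the 6 passed. None of the 6 neuron or 3 tested body wall muscle markers passed either. In this comparison 10.3% of all genes passed. The part of these markers in the lower *daf-9* and *daf-36* counts was not tested.

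Treated mutants were also set against untreated N2. The *daf-9* gene stood between the levels of the other groups, at 343 ± 19.6 against 168 ± 4.17 normalized counts in N2 (2.04-fold), and *daf-36* at 312 ± 18.7 against 224 ± 11.9 (1.39-fold). The log2 differences were 1.02 (SE 0.36, adjusted p = 0.0392) and 0.48 (SE 0.20, adjusted p = 0.0705), and -0.082 for *daf-12* (adjusted p = 0.776). Again 0 of 3 passed in limma, edgeR and DESeq2, where 22.1% of all genes passed in limma, and 2 had an unadjusted p under 0.05. The libraries of *daf-9* and *daf-36* were all above those of N2, as for 31.7% of all genes. Without N2 vitC replicate 3, *daf-9* (8.24e-08, called) and *daf-36* (4.34e-05) passed, against 50.4% of all genes. This comparison shares its N2 libraries with the first and its mutant libraries with the third.

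Between the strains under vitamin C, *daf-9* had 343 ± 19.6 against 173 ± 134 normalized counts, *daf-36* 312 ± 18.7 against 467 ± 153 and *daf-12* 2964 ± 557 against 4926 ± 1617. The log2 differences of the mutant from N2 were 1.24, -0.52 and -0.69 (SE 0.36, 0.20 and 0.22), with adjusted p = 0.0683, 0.0778 and 0.0683. In this comparison 0% of the 14352 genes passed in limma, 0 in edgeR and 322 in DESeq2, although 6016 genes, the 3 genes here among them, had an unadjusted p under 0.05. Leaving out N2 vitC replicate 3, 52% of all genes passed. Then *daf-9* was 3.58-fold higher (log2 1.83, adjusted p = 4.84e-10), *daf-36* was at 0.563 (log2 -0.83, adjusted p = 4.78e-07) and *daf-12* at 0.506 (log2 -1.0, adjusted p = 2.79e-06) of the N2 vitC mean.

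The interaction term asked whether the strains responded differently to vitamin C. The response of *daf-36* differed: it was 1.00 in N2 and -0.32 in the mutant on the log2 scale, a difference of -1.31 (SE 0.28, adjusted p = 0.00461, called). No difference was shown for *daf-12* (-0.55, 95% confidence interval -1.22 to 0.12, adjusted p = 0.216) or *daf-9* (-0.60, interval -1.70 to 0.51, adjusted p = 0.425). The term passed downward in 5.62% of all genes and was called downward in 2.12%. The adjusted p of *daf-36* was 0.00760 without N2 vitC replicate 1, and above 0.01, up to 0.0145, without any 1 of the other 10 libraries apart from N2 vitC replicate 3.

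Without N2 vitC replicate 3 the interaction was -1.62 for *daf-36* (adjusted p = 1.39e-08) and -0.86 for *daf-12* (adjusted p = 0.000322), and 34.1% of all genes passed. For *daf-9* it was -0.0077 with an interval of -0.28 to 0.26 (adjusted p = 0.966). In that fit the log2 response of *daf-9* to vitamin C was -0.81 in N2 and -0.82 in the mutant, whereas that of *daf-36* was 1.30 and -0.32.

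**Figure D3:**
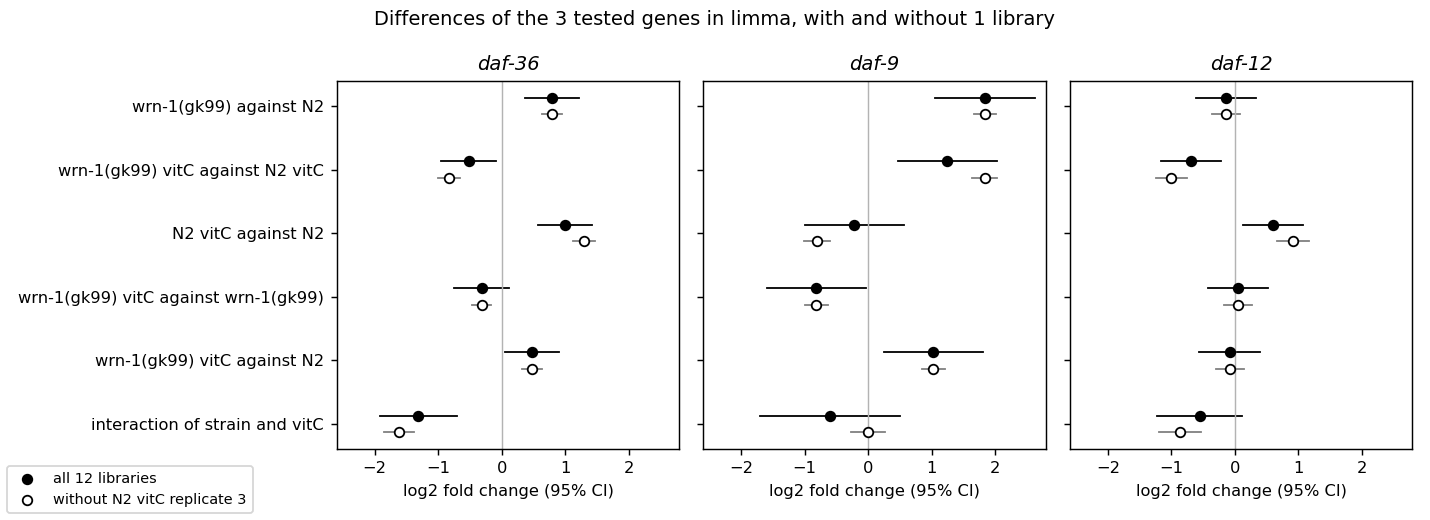
Log2 fold change in limma (horizontal axis, lines are 95% confidence intervals) of *daf-36*, *daf-9* and *daf-12* in the 5 comparisons and the interaction of strain and vitamin C. Filled points use all 12 libraries and open points leave out N2 vitC replicate 3: the *daf-36* interaction lies below 0 in both (-1.31 and -1.62), and that of *daf-9* is -0.60 and -0.0077.

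The genes whose levels were most alike were taken by Pearson correlation on the log2 scale over the 12 libraries, among the 9852 genes above the study's minimum mean, as a description. For *daf-9* they were *asns-2*, encoding an asparagine synthetase (r = 0.999), *pro-2* (0.997) and the collagen gene *col-142* (0.997). The *asns-2* means were 1544 in N2, 6141 in *wrn-1(gk99)* and 3217 in *wrn-1(gk99)* vitC, with 3142 in N2 vitC replicate 3 against a mean of 817 in the first and second libraries. For *daf-36* they were the cuticle collagen genes *dpy-10* (0.991) and *dpy-7* (0.985), the latter 1 of the hypodermis markers, and *dhs-29*, a short-chain dehydrogenase gene (0.984). The *dpy-10* means were 2397 in N2, 4114 in the mutant and 3152 in the treated mutant, with 5884 in the first and second N2 vitC libraries and 3058 in replicate 3. For *daf-12* they were D2085.5 (0.988), *swsn-4*, which encodes a chromatin remodelling subunit (0.983), and *spat-3* (0.976).

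The genes around the hormone were described by role from 5 lists, of which 41 of 45 genes were in the table and 39 were tested. Among 7 other steroid enzyme genes, *let-767* was listed at 0 in all libraries and *hsd-2* was under the minimum mean. The 0 of *let-767* is not read as a lack of expression, and its cause was not tested. In *wrn-1(gk99)* against N2, 3 of the remaining 5 rose and 1 fell, where 20.4% and 23% of all genes did (median log2 difference 0.26, against 0.0057 over all genes). The dehydrogenase gene *dhs-16*, which acts in dafachronic acid synthesis, had 912, 923 and 939 normalized counts in N2 and 334, 317 and 337 in the mutant. It fell to 0.356 of N2 (log2 -1.49, SE 0.20, adjusted p = 8.54e-05). The mutant libraries were all below those of N2, opposite to *daf-9*. In the treated mutant *dhs-16* had 543, 624 and 591, all above the untreated mutant and below N2. That difference did not pass over all 12 libraries (log2 0.83, adjusted p = 0.0142) but did without N2 vitC replicate 3 (adjusted p = 3.2e-08), where 28.5% of all genes passed.

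The hydroxysteroid dehydrogenase homolog *hsd-3* rose 2.64-fold (log2 1.46) on low counts, from 36.9 ± 14.2 in N2 to 97.3 ± 5.92 in the mutant. It passed but was not called, because both means were under the study's minimum. The gene *emb-8*, encoding the reductase that passes electrons to cytochromes P450, rose 1.20-fold (log2 0.26). The sterol methyltransferase gene *strm-1*, listed as H14E04.1, whose enzyme draws sterols away from hormone synthesis, had 185, 210 and 191 normalized counts in N2 and 359, 328 and 311 in the mutant (log2 0.77, adjusted p = 0.00654). In N2 vitC it had 689, 767 and, in replicate 3, 384. It rose 3.14-fold (log2 1.59, SE 0.20, adjusted p = 0.000207), the 1 of 5 to pass, where 5.26% of all genes passed upward. In the treated mutant it had 331, 345 and 376, and its interaction was -1.51 (SE 0.28, adjusted p = 0.00226). In all 4 groups the order of the *strm-1* means was that of *daf-36* except for the treated and untreated mutant, whose ranges overlapped for *strm-1*.

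On a list of 6 genes for sterol transport and storage, *dsc-4*, the homolog of a lipid transfer protein that loads lipoproteins, rose 2.14-fold in *wrn-1(gk99)* (log2 1.09, adjusted p = 2.83e-05). The listed *hid-1*, a gene of secretory vesicles and not of sterol transport itself, fell to 0.563 (log2 -0.83). The other 4 did not pass (median log2 -0.059 over the 6), where 20.4% of all genes rose and 23% fell. The mutant's *dsc-4* count fell with vitamin C to 0.662 (log2 -0.60, adjusted p = 0.00698), the 1 of 6 to pass, where 10.3% of all genes passed. The 1 that passed with vitamin C in N2 was *ncr-2*, an intracellular sterol transporter gene with low counts, which fell from 30.2 ± 5.32 to 13.3 ± 2.36 normalized counts (log2 -1.12, adjusted p = 0.00391), as 7.48% of all genes passed downward.

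Among the corepressor gene *din-1* and the receptor genes *nhr-8* and *nhr-48*, related to *daf-12*, *nhr-8* was the 1 to pass in *wrn-1(gk99)* against N2 over all 12 libraries. It had 642, 707 and 711 normalized counts in N2 and 1090, 1105 and 1145 in the mutant (log2 0.70, SE 0.09, adjusted p = 7.79e-05). It encodes a receptor of cholesterol balance. The *din-1* gene had 6908 ± 327 in N2 and 5357 ± 171 in the mutant. Without N2 vitC replicate 3, which is in neither group, *din-1* (log2 -0.37, adjusted p = 0.0047) and *nhr-48* (log2 -0.30, adjusted p = 0.0036) passed as well, both lower in the mutant, where 62.9% of all genes passed. In neither strain did any of the 3 pass with vitamin C over all 12 libraries. Without N2 vitC replicate 3, *nhr-8* (0.24) and *din-1* (0.44) rose with vitamin C in N2 and *nhr-8* fell (-0.23) in the mutant, all on the log2 scale, where 36.4% and 28.5% of all genes passed.

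Of 7 heterochronic genes, which time larval development and in part act with *daf-12*, 3 rose and 1 fell in *wrn-1(gk99)* against N2 (median log2 0.32), where 20.4% and 23% of all genes did. They were *lin-46*, a scaffold-like factor (log2 1.45), *hbl-1*, a transcription factor gene and target of the microRNAs of the *let-7* family (0.97), *lin-14* (0.46) and the RNA-binding protein gene *lin-28* (-0.45). The *hbl-1* gene had 353, 318 and 371 normalized counts in N2 and 717, 674 and 651 in the mutant. In N2 vitC it had 836, 778 and, in replicate 3, 493. It rose 2.02-fold (log2 0.98, adjusted p = 0.00342), and it was the 1 of 7 to pass, where 5.26% of all genes passed upward. In the mutant with vitamin C *lin-14* was the 1 to pass, lower by a log2 of -0.46 (adjusted p = 0.00857), where 10.3% of all genes passed. When N2 vitC replicate 3 was left out, 4 of 7 were lower in that comparison, *lin-46* (log2 -0.80), *hbl-1* (-0.46), *lin-14* (-0.46) and *lin-29* (-0.24), against 28.5% of all genes passing. The interaction passed for 3 of 7, *hbl-1* (-1.44), *lin-29* (-0.69) and *lin-14* (-0.67), where 5.62% of all genes passed downward. The microRNA genes on this list were not analysed here.

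Of 18 genes of the insulin-like, TGF-β and guanylyl cyclase signals that act before *daf-9* in the dauer decision, 5 rose and 7 fell in *wrn-1(gk99)* (median log2 -0.088), where 20.4% of all genes rose and 23% fell. The 4 largest were the insulin-like peptide genes *ins-6* (log2 1.63) and *ins-4* (0.90), the kinase gene *pdk-1* (-1.09) and the TGF-β ligand gene *daf-7* (-0.98). Counts of *ins-6* were low, at 26.0 ± 3.67 in N2 and 81.8 ± 3.10 in the mutant, both under the study's minimum for a call. The *daf-7* gene fell from 1351 ± 57.1 to 683 ± 32.9 normalized counts (adjusted p = 4.42e-06). In the treated mutant it rose to 914 ± 49.3 (log2 0.42, adjusted p = 0.00731), while *daf-5* (-0.55) and the kinase gene *akt-2* (-0.43) fell, 3 of 18 in all, where 10.3% of all genes passed. In the fit without N2 vitC replicate 3, 4 of the 18 rose and 6 fell in this comparison, against 28.5% of all genes passing. In N2, the kinase genes *akt-2* (-0.73) and *akt-1* (-0.49) fell with vitamin C and 16 genes did not pass, where 7.48% of all genes passed downward.

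The treated mutant still differed from untreated N2 in some of these genes: *strm-1* (log2 0.84) and *nhr-8* (0.47) were higher, and 6 of the 18 dauer signal genes were lower, the largest being *pdk-1* (-0.97), *akt-2* (-0.81), *akt-1* (-0.59) and *daf-7* (-0.56). Of all genes, 22.1% passed in this comparison. The interaction passed in 3 of the 18, *akt-1* (0.72), *daf-7* (0.64) and *daf-5* (-0.56), and for *nhr-8* (-0.59), where 14.9% of all genes passed. More of them passed with vitamin C in N2 when N2 vitC replicate 3 was left out. Then 2 of 5 steroid enzyme genes rose, and on the transport list 2 of 6 rose, *hid-1* among them, and 1 fell. Of the heterochronic genes 3 of 7 rose and 1 fell, and of the dauer signal genes 2 of 18 rose and 3 fell. In that fit 36.4% of all genes passed, and nothing particular to these lists is read from their counts.

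**Figure D4:**
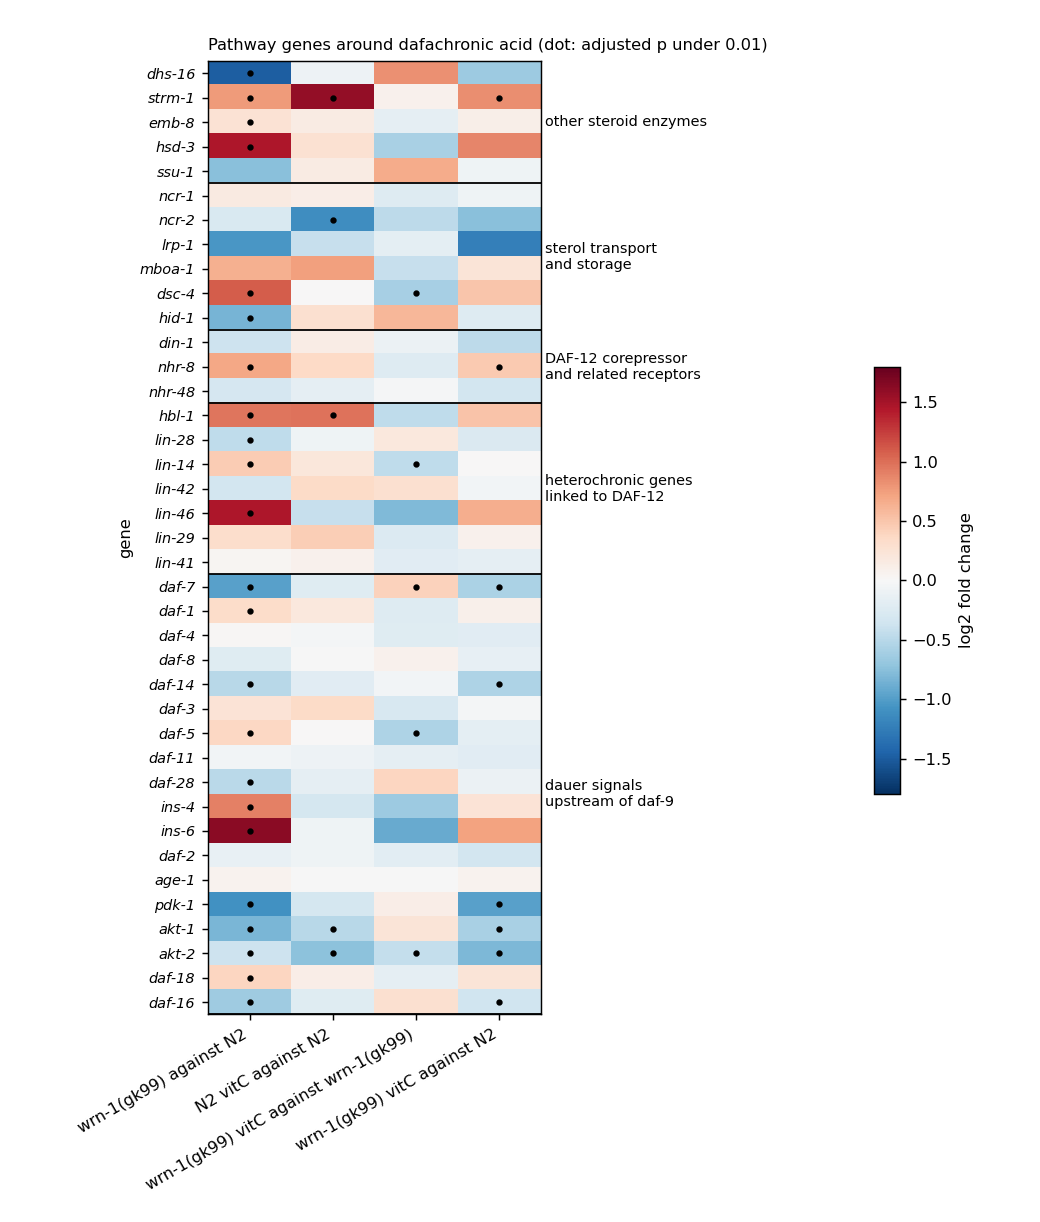
Log2 fold change in limma (colour, red higher and blue lower in the first-named group) of the 39 tested genes of the 5 lists in 4 comparisons, all 12 libraries included; dots mark an adjusted p under 0.01. The column of *wrn-1(gk99)* against N2 holds the most dots, with *dhs-16* (-1.49) and *ins-6* (1.63, on low counts) at the ends. In the vitamin C column of N2, *strm-1* leads (1.59).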

How the data were processed

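RNA was measured by sequencing in 12 libraries of whole worms. Per the study's methods, TopHat placed the reads on the ce10 genome and htseq-count gave counts, which the authors scaled with DESeq. The deposited signal is therefore reads over a size factor, and no column pools libraries. The counting mode, strand setting and versions are not given in the sources used here. In the 12 columns 100% of values above 0 came out as whole numbers of reads (within 0.01), so reads were recovered for depth, edgeR 4.0.16 and DESeq2 1.42.0, which called 1557 and 1569 genes in *wrn-1(gk99)* against N2, where limma called 1552. Depth was 13446257 to 34234211 reads per library, and few reads limit precision, as for *hsd-1*.

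Groups came from the sample labels. Tests used limma 3.58.1 (R 4.3.3; lmFit, then eBayes with a trend) on log2 values after a pseudocount of 1, with Benjamini-Hochberg adjustment over 14352 genes. Fold changes on this scale understate those of low genes. A call for the interaction needed a log2 difference of at least 1 and any group mean above the study's minimum. Lengths are merged exons of WBcel235, not the authors' build, and no coordinates are given. The members and lists were chosen with earlier results of these data known. Named are the 4 genes, *wrn-1*, up to 4 passing genes per pathway list and comparison by size, and the 3 most alike genes per member. The *din-1*, *nhr-48*, hypodermis and *nhr-23* values, *dhs-16* in the treated mutant, and *eak-6* and *eak-7*, were added after their values were seen. So were the values of the adult genes by group. The alternatives were other pseudocounts (0.1, 10), gene filters, scalings, fits, tools, a replicate block and libraries left out. The fit without N2 vitC replicate 3 was added after seeing the data. The script was tested on simulated data.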

Additional observations from a re-analysis of the deposited data

Results flagged for a closer look

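The response of *daf-36* to vitamin C differed between the strains: the interaction was -1.31 on the log2 scale (SE 0.28, limma adjusted p = 0.00461). With vitamin C all 3 N2 libraries were above the 3 untreated ones, as for 14% of all genes, and replicate 3, which stood apart, was the lowest of them. All 3 mutant libraries were below theirs, as for 26.5% of all genes, and that difference did not pass (limma adjusted p = 0.306). The interaction lost the threshold in 10 of 22 alternatives, with an adjusted p of up to 0.0145.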

How the results depend on the processing

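Over 440 alternative values of the 3 tested genes and of the number of genes called, 391 kept their direction and side of the threshold, 22 lost the threshold, 14 gained it, 4 counts moved by over 1.5 times and 9 changed sign. None of the 9 values that changed sign passed. For *daf-12* with equal totals, the log2 difference was 0.028 in *wrn-1(gk99)* and 0.098 in *wrn-1(gk99)* vitC, both against N2. Equal totals moved the median of all genes from 0.0057 to 0.17 and from 0.0063 to 0.19 in these comparisons, about as much as the value of *daf-12* moved. The cause of the others was not tested: *daf-9* in N2 vitC against N2 was 0.083 in edgeR and 0.051 in DESeq2.

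Fitted with only the groups compared, *daf-36* in N2 vitC against N2 stayed at 1.00 but lost the threshold (adjusted p = 0.0548), and 130 genes were called in place of 358. In the mutant with and without vitamin C, *daf-36* (-0.32) and *daf-9* (-0.82) then passed, as they did against N2 (0.48 and 1.02), and all 4 also passed without N2 vitC replicate 3 in the fit. DESeq2 called 156 genes between the treated strains where limma called 0.

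Leaving out 1 library of the groups compared gave these ranges of log2 differences. In *wrn-1(gk99)* against N2, *daf-36* was 0.75 to 0.83. In N2 vitC against N2, *daf-36* was 0.81 to 1.30, *daf-9* -0.81 to 0.14, *daf-12* 0.45 to 0.92, and 267 to 659 genes were called. Between the treated and untreated mutant *daf-12* was -0.083 to 0.19, and against N2 -0.22 to 0.050. Between the treated strains, *daf-36* was -0.83 to -0.33, *daf-9* 0.88 to 1.83, *daf-12* -1.0 to -0.53, and 0 to 978 genes were called. The interaction was -1.62 to -1.12 for *daf-36* and -0.86 to -0.39 for *daf-12*.

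The deviations of libraries with the same replicate number correlated at -0.081 to 0.17 in 18 pairs, above 0 in 15 and above 0.1 in 5, and 8 of 12 libraries correlated best with one of their own number. Not every pair was above 0.1, so the numbers were not taken to pair the libraries. Whether libraries of the same number shared a batch was not tested. With a replicate block *daf-36* in *wrn-1(gk99)* against N2 stayed at 0.79 (adjusted p = 0.00460), no call changed, and 1554 genes were called in place of 1552. At this depth *hsd-1*, with 12 reads in all, allows no comparison.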
